A study of Mus musculus with 7 samples.

Results

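The genes described here are 38 gene entries of a mouse leukaemia data set that encode the enzymes of glycolysis, the transporters of glucose and lactate, the oxygen-sensing machinery and genes known to be induced by low oxygen. They were taken by name from a list of 39 symbols, of which 38 matched among the 24726 entries of each library. The symbol without an entry, Pkm2, is an older name of Pkm, which is present. RNA with poly(A) tails had been sequenced from B-cell acute lymphoblastic leukaemia (B-ALL) of C57BL/6 mice. The 3 libraries called Pax5-Etv6 B-ALL carry the genotype Cdkn2ab+/-Pax5Etv6/+, that is, the Pax5-Etv6 fusion on 1 allele and loss of 1 copy of Cdkn2a-Cdkn2b, and were made from whole lymph node taken directly from the animal. The 2 libraries called control B-ALL carry Trp53-/-, NrasG12D/+ and Myc delivered by a retrovirus; their RNA was taken from whole bone marrow that had been cultured for a short time. A strand-specific cDNA protocol is given for the Pax5-Etv6 libraries, and this field is blank for the controls. Genotype, tissue, culture and perhaps protocol therefore differ together between the groups and cannot be told apart. The labels give no ages and do not say whether each library is a different animal. The p-values below therefore reflect only how far these 5 libraries spread, which may in part be technical. In RNA from whole tissue, fewer cells of a type and less RNA per cell cannot be told apart.

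Glycolysis splits glucose into pyruvate, which cells either reduce to lactate and export or pass to mitochondria. Proliferating lymphoid cells are known for high glycolytic flux, and MYC and the hypoxia-inducible factor HIF-1 both activate genes of the pathway. HIF-1 is controlled through its alpha subunit, which prolyl hydroxylases mark for destruction while oxygen is present. When oxygen falls the subunit accumulates and binds short DNA elements near its target genes.

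The genotype genes were read first. Trp53 stood at 486, 454 and 489.9 TPM in Pax5-Etv6 B-ALL and 11.3 and 20.5 TPM in control B-ALL, Myc at 341, 387 and 286 TPM in Pax5-Etv6 B-ALL and 1544 and 2095 TPM in control B-ALL, and Etv6 at 35.8, 39.9 and 41.1 TPM in Pax5-Etv6 B-ALL and 12.3 and 12.1 TPM in control B-ALL, each without overlap between the groups. Cdkn2a was at 15.0, 53.0 and 18.4 against 426 and 558 TPM and fell (log2 fold change -4.25 ± 0.51, adjusted p = 0.00143). Cdkn2b (0.0663, 7.03 and 0 against 1.73 and 3.11 TPM) and Pax5 (251, 203 and 208 against 200.2 and 252 TPM) overlapped, and Nras (55.9, 56.1 and 60.2 against 64.0 and 61.3 TPM) was not called either. The values are per gene and show neither the fusion nor a point mutation. Recovered depth ran from 20110795 to 50994959 reads per library as a lower bound. Markers of the B lineage were present in all 5 libraries, with summed levels of 8155, 11571 and 11810.2 TPM in Pax5-Etv6 B-ALL and 6473 and 5851 TPM in control B-ALL over 12 genes and no marker at 0. Of these 12, all tested, 5 were higher and 2 lower, and the sums of all 3 Pax5-Etv6 libraries were above both controls. Summed markers of other cell types were higher too, and in each list below all 3 libraries were above both controls. The counts of higher members are to be read against all tested genes, of which 21.9% were higher and 29.7% lower. Summed macrophage markers stood at 188, 640.5 and 227 TPM in Pax5-Etv6 B-ALL and 26.1 and 72.8 TPM in control B-ALL, with 6 of 10 tested members higher and Marco at 0 in both controls. Stromal and endothelial markers summed to 313, 998 and 466 TPM in Pax5-Etv6 B-ALL and 80.5 and 92.0 TPM in control B-ALL, with 5 of 7 tested members higher and Pdgfra at 0 in both controls. Pax5-Etv6 replicate 2 was thus highest for macrophage and stromal markers. Neutrophil markers summed to 261, 35.8 and 148 TPM in Pax5-Etv6 B-ALL and 0.686 and 0.747 TPM in control B-ALL, with 9 of 9 tested members higher and S100a8 at 0 in both controls. Erythroid markers summed to 85.6, 17.1 and 27.2 TPM in Pax5-Etv6 B-ALL and 1.38 and 1.64 TPM in control B-ALL, with 2 of 3 tested members higher and 5 haemoglobin entries at 0 in every library. Summed T-cell markers, which include Lck and Zap70, stood at 408, 724 and 679.9 TPM in Pax5-Etv6 B-ALL and 26.9 and 94.6 TPM in control B-ALL, with 5 of 6 tested members higher, whereas the defining marker Cd3e did not exceed 0.637 TPM in any library and was at 0 in both controls. Replicate 1 was highest for neutrophil and erythroid markers. The part of these cells in the differences described below was not tested.

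Of the 15 tested enzymes from hexokinase to pyruvate kinase, 10 were lower in Pax5-Etv6 B-ALL, 1 (Aldoc) was higher and 4 were not called. Of the 12 tested oxygen-sensing and hypoxia genes, 6 were lower, 2 (Vegfa and Ndrg1) were higher and 4 were not called. Values are in TPM, a read count scaled for gene length and for the library total, and differences were tested on log2(TPM + 1) with limma, a linear model fitted over the 11805 genes that reached 1 TPM in 2 or more libraries. A gene is said to rise or fall where its Benjamini-Hochberg adjusted p over all these genes is under 0.05, and each fold change is given with its SE for 3 against 2 libraries on that scale; for low genes it is smaller than the ratio of the TPM values. Of the 38 entries, 35 passed the level filter. Among these 18 fell, 3 rose and 14 were not called, or 60.0% called, 51.4% lower and 8.57% higher. Over all tested genes 51.7% were called, 29.7% lower and 21.9% higher, or 3511 and 2588 genes, which became 1954 and 1410 without control replicate 1. The median log2 fold change was -0.70 over the 35 entries and -0.11 over all tested genes. In 24 of the 35 the groups did not overlap, against 72.2% of all tested genes, so the members were near the background in how often the groups separated.

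**Figure D1:**
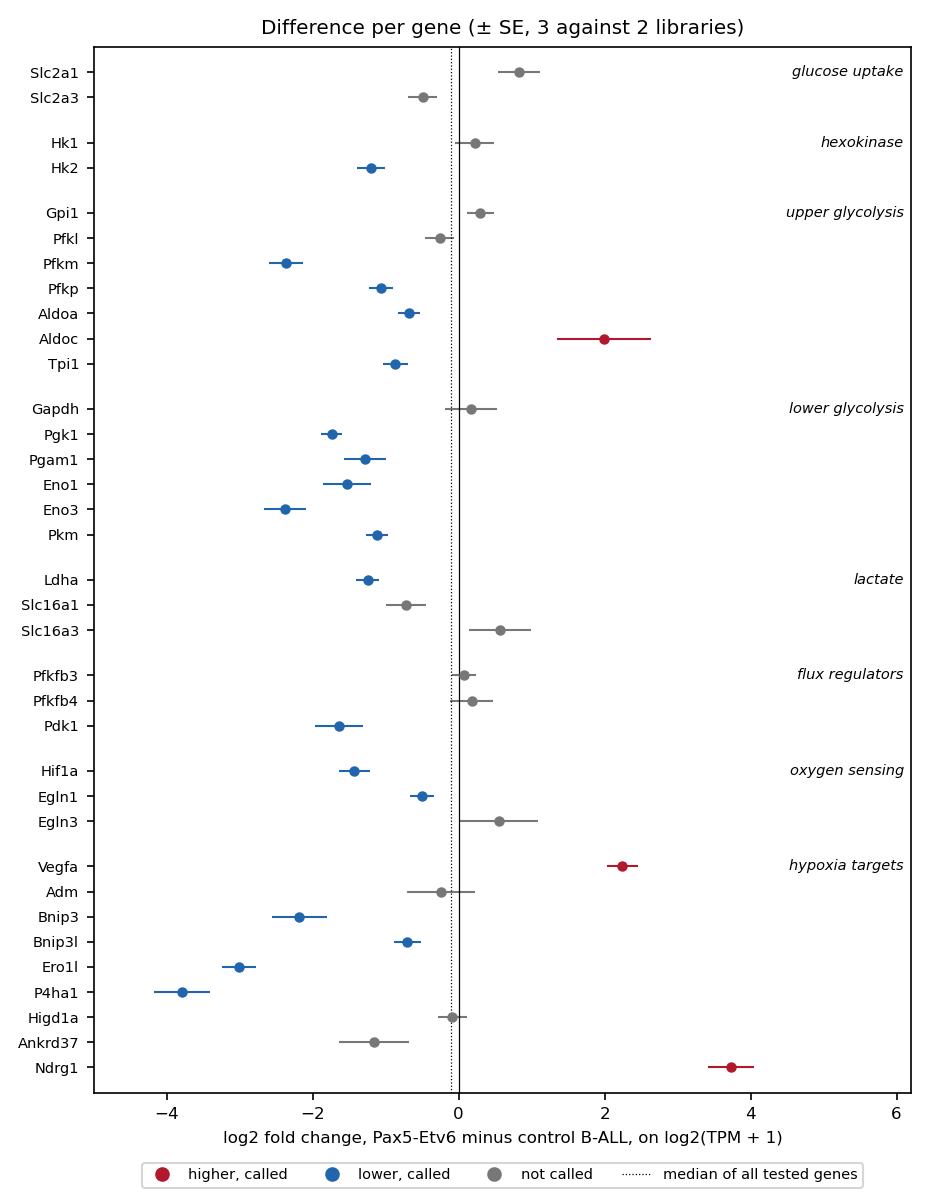
Log2 fold change (Pax5-Etv6 minus control B-ALL, on log2(TPM + 1)) with its SE for the 35 tested genes, ordered by role; the dotted line marks the median of all tested genes (-0.11). Of the called genes, 18 lie to the left of 0 and Aldoc, Vegfa and Ndrg1 to the right.

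Start-site sequences are shown for 4 hypoxia targets (P4ha1, Ero1l, Bnip3 and Vegfa) and 2 enzymes of glucose use (Pgk1 and Ldha), chosen after their values were seen, because hypoxia response elements, the DNA elements bound by HIF-1, share the core ACGTG or GCGTG. The MYC-binding E-box CACGTG contains the first of these on each strand. RefSeq windows of 300 bases (250 before to 50 after a start site, build GRCm38.p6, which differs from the mm9 build named for the data) were found for 35 of the 38 genes (not for Slc2a3, Bnip3l and Ndrg1). The 250 bases before the start site are printed, with matches to either core on either strand in capitals.
P4ha1, chr10:59323046-59323295, strand +: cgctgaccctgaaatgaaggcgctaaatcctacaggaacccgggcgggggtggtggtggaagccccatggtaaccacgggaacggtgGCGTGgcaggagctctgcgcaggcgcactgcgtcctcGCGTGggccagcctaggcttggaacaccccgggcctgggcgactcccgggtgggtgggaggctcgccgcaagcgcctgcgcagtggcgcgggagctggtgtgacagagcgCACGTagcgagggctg
Ero1l, chr14:45318573-45318822, strand -: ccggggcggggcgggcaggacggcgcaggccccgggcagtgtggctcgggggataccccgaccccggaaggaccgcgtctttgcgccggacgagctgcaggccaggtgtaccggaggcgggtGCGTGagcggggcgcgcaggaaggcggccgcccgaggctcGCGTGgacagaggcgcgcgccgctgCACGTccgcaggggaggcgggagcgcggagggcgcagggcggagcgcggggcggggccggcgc
Bnip3, chr7:138909507-138909756, strand -: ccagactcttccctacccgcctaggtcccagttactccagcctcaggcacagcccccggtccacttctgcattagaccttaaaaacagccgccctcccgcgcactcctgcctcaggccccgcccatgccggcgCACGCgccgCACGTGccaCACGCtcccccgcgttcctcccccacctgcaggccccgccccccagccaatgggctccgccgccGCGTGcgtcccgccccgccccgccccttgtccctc
Pgk1, chrX:106186850-106187099, strand +: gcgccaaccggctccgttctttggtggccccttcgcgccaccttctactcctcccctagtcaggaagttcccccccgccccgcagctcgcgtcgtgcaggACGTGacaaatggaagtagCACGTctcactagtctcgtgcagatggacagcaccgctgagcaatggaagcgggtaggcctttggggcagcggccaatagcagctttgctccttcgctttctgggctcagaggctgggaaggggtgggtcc
Ldha, chr7:46845554-46845803, strand +: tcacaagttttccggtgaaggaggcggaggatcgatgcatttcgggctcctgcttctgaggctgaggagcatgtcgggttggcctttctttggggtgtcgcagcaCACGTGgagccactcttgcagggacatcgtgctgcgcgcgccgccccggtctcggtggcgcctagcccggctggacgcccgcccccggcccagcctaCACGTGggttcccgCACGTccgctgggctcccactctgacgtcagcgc
Vegfa, chr17:46032378-46032627, strand -: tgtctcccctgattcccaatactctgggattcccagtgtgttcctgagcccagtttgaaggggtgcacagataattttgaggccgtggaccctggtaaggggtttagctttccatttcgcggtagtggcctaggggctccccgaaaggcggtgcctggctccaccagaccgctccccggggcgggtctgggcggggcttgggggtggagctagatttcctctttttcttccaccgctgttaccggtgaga
The first 5 of these genes fell and the last rose. An E-box is present once before Bnip3 and at a pair of positions before Ldha, Pgk1 holds 2 matches to ACGTG, with first bases at -150 and -131 from the start site, and the window shown for Vegfa holds no match, although a second Vegfa start site has 2. Sequence outside the windows was not searched, so a window without a match does not show that a gene lacks such an element.

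Over all 49 windows of the 35 genes, 81.6% held at least 1 of the 2 cores, against 43.8% of the 32851 RefSeq windows of this length. For ACGTG alone the shares were 55.1% and 19.6%, for GCGTG 61.2% and 32.4%, and for CACGTG, whose matches also count as ACGTG, 12.2% and 7.15%. Both cores contain a CpG, and the windows of these genes were richer in G and C (median 62.3%) than all windows (median 52.7%). The share with a core was 81.5% in 27 windows of genes that fell, 75.0% in 4 windows of genes that rose and 86.7% in 15 windows of genes that were not called. By window the share was thus no larger for genes that fell than for genes that were not called. Genes with several start sites count more than once in it. By gene, a core was held in at least 1 window by 16 of 17 that fell, 2 of 2 that rose and 32 of all 35. No such count by gene was made for all RefSeq genes or for the genes not called, so these counts have no background. These are matches of letters and no measure of binding.

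**Figure D2:**
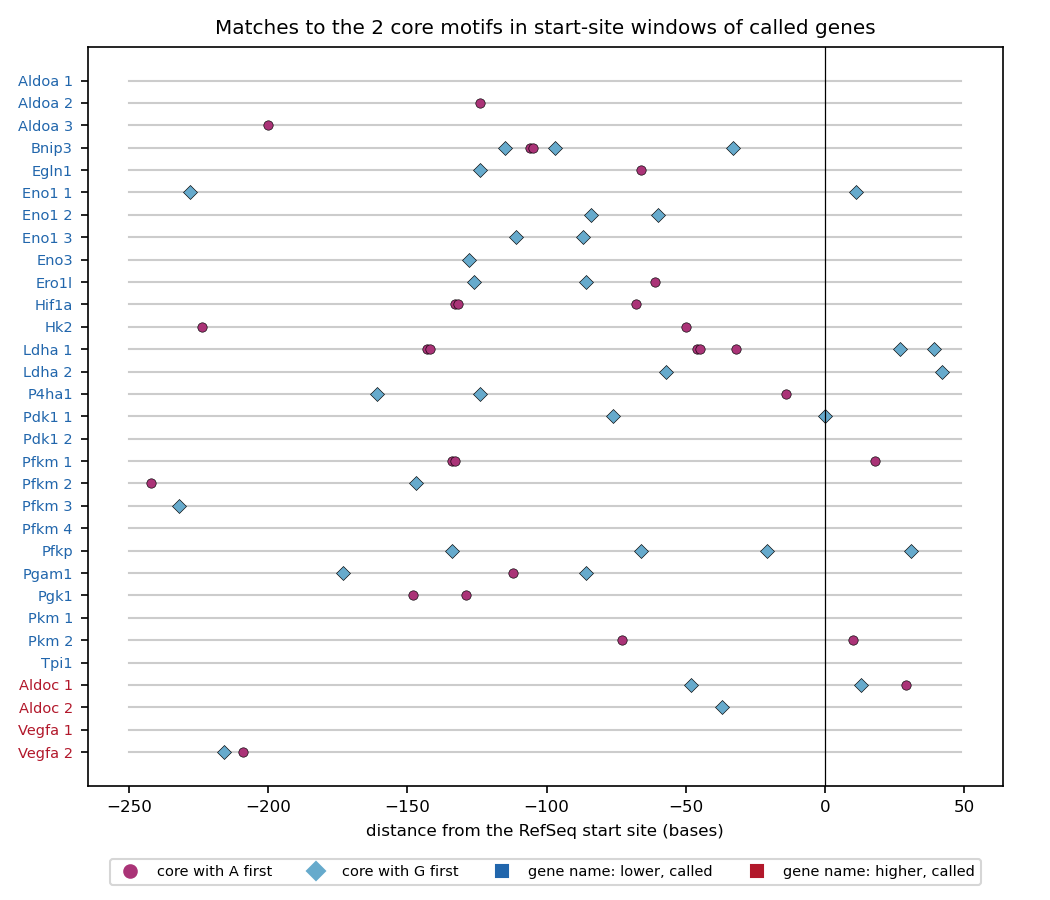
Positions of matches to ACGTG (circles) and GCGTG (diamonds), on either strand, in RefSeq windows of called genes; the x axis is the distance from the start site in bases, gene names in blue fell and those in red rose, and a number after a name tells its start sites apart. Matches lie throughout the windows, with up to 7 in the first Ldha window and none in the first of Vegfa.

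Glucose enters the cell through facilitative transporters and is trapped by hexokinase. Slc2a1, the basal transporter GLUT1, stood at 62.4, 37.5 and 40.1 TPM in Pax5-Etv6 B-ALL and 20.7 and 30.7 TPM in control B-ALL. All 3 Pax5-Etv6 libraries were above both controls, but the difference was not called (log2 fold change 0.83 ± 0.29, adjusted p = 0.0524). It was called under 5 of 16 alternative settings, among them median-of-ratios scaling (adjusted p = 0.0497), with 0.0373 to 0.266 over all alternatives. Slc2a1 was highest in replicate 1, as were the summed neutrophil and erythroid markers, whose part in this was not tested. Slc2a3, the high-affinity transporter GLUT3, lay the other way, at 22.0, 26.8 and 27.4 against 37.8 and 34.2 TPM, without overlap and also without a call (log2 fold change -0.49 ± 0.19, adjusted p = 0.0725).

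Hexokinase split between its isoenzymes. Hk2, the inducible form, stood at 16.3, 19.3 and 17.1 TPM in Pax5-Etv6 B-ALL and 39.9 and 43.7 TPM in control B-ALL, 2.38-fold lower in Pax5-Etv6 B-ALL (log2 fold change -1.21 ± 0.19, adjusted p = 0.00346). Hk1, the constitutive form, overlapped between groups at 41.1, 55.5 and 54.8 against 55.4 and 32.9 TPM and was not called (log2 fold change 0.22 ± 0.27, adjusted p = 0.512).

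The upper part of glycolysis turns glucose 6-phosphate into triose phosphates. Its first enzyme, the isomerase Gpi1, overlapped between the groups, at 404, 345 and 325 against 249 and 338 TPM, and was not called (log2 fold change 0.30 ± 0.19, adjusted p = 0.218). Phosphofructokinase, the committed step, has muscle, platelet and liver subunits. Pfkm, the muscle subunit, stood at 5.32, 7.25 and 6.75 TPM in Pax5-Etv6 B-ALL and 37.1 and 37.3 TPM in control B-ALL, a fall of 5.77-fold with little spread within either group (log2 fold change -2.37 ± 0.24, adjusted p = 0.00088). Pfkp, the platelet subunit, whose deposited name carries a tag that reads as overlap with another gene, was at 34.8, 43.1 and 40.8 against 80.4 and 86.4 TPM and fell (log2 fold change -1.06 ± 0.17, adjusted p = 0.0034). The liver subunit Pfkl overlapped between the groups, at 53.9, 59.1 and 50.7 against 54.8 and 77.9 TPM (log2 fold change -0.26 ± 0.20, adjusted p = 0.308). Thus 2 of the 3 subunits fell.

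Aldolase A, Aldoa, which cleaves fructose bisphosphate, had 382, 359 and 316 TPM in Pax5-Etv6 B-ALL and 522 and 608 TPM in control B-ALL and fell (log2 fold change -0.68 ± 0.15, adjusted p = 0.0118). Its brain-type counterpart Aldoc moved the other way at a far lower level, 2.55, 14.0 and 10.9 TPM in Pax5-Etv6 B-ALL and 0.678 and 1.78 TPM in control B-ALL (log2 fold change 1.99 ± 0.65, adjusted p = 0.0411). Replicate 1 was near the controls, while replicates 2 and 3 were clearly above them; the highest value was in replicate 2, as for summed macrophage and stromal markers, whose part was not tested. The Aldoc call was lost without control replicate 1 (adjusted p = 0.233) or 2 (0.0956), without Pax5-Etv6 replicate 2 (0.0781) or 3 (0.0963), with a pseudocount of 5 TPM (0.0602, fold change 1.08) and with no filter (0.0996), with 0.00188 to 0.233 over all alternatives. Triose-phosphate isomerase, Tpi1, whose name also carries an overlap tag, stood at 371, 398 and 372 against 596 and 812 TPM and fell (log2 fold change -0.87 ± 0.17, adjusted p = 0.00739).

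In the lower part of glycolysis, which yields ATP and pyruvate, 5 of 6 tested entries (83.3%) fell, against 29.7% of all tested genes. Pgk1, the kinase that makes the first ATP of the pathway, stood at 68.0, 73.9 and 63.4 TPM in Pax5-Etv6 B-ALL and 219 and 242 TPM in control B-ALL, a 3.36-fold difference (log2 fold change -1.74 ± 0.14, adjusted p = 0.000601). The 3 Pax5-Etv6 libraries lay within 63.4 to 73.9 TPM, far from both controls. Pkm, pyruvate kinase and the most abundant entry of the set, stood at 885, 962 and 933 TPM in Pax5-Etv6 B-ALL and 2132 and 1891 TPM in control B-ALL (log2 fold change -1.12 ± 0.15, adjusted p = 0.00206). The values are per gene, so the Pkm1 and Pkm2 splice forms cannot be separated. Pgam1, phosphoglycerate mutase, had 26.9, 23.9 and 24.6 TPM in Pax5-Etv6 B-ALL and 86.2 and 45.1 TPM in control B-ALL (log2 fold change -1.28 ± 0.29, adjusted p = 0.0114); the controls themselves differed, and without control replicate 1 the fold change was -0.82 (limma adjusted p = 0.0345).

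Enolase, which dehydrates 2-phosphoglycerate, is encoded by several genes. Eno3, the muscle form, had 7.48, 12.2 and 12.7 TPM in Pax5-Etv6 B-ALL and 51.9 and 67.0 TPM in control B-ALL and was 5.50-fold lower (log2 fold change -2.38 ± 0.29, adjusted p = 0.00147). Eno1, the ubiquitous form, was listed at only 2.81, 3.35 and 1.89 against 7.50 and 11.9 TPM and carries an overlap tag. Eno2, the neuronal form, did not exceed 0.209 TPM in any library and was not tested. Eno1 fell (log2 fold change -1.53 ± 0.33, adjusted p = 0.0102), a call lost without control replicate 2 (adjusted p = 0.0696; all alternatives gave 0.00856 to 0.0696), and with a pseudocount of 5 TPM the fold change was -0.92. Gapdh, the dehydrogenase of this part, was also listed low, at 5.39, 8.67 and 5.32 against 4.10 and 7.30 TPM, with overlap and no call (log2 fold change 0.17 ± 0.35, adjusted p = 0.705). Near-identical copies and processed pseudogenes exist for Gapdh and Eno1, and for Pgk1, Pgam1, Aldoa and Ldha among others, and reads shared with copies can be lost or split in counting. The levels of Gapdh and Eno1 are therefore uncertain, and so are the summed levels and the enolase shares they enter. The levels of Pgk1, Pgam1, Aldoa and Ldha could be affected in the same way, which was not tested.

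**Figure D3:**
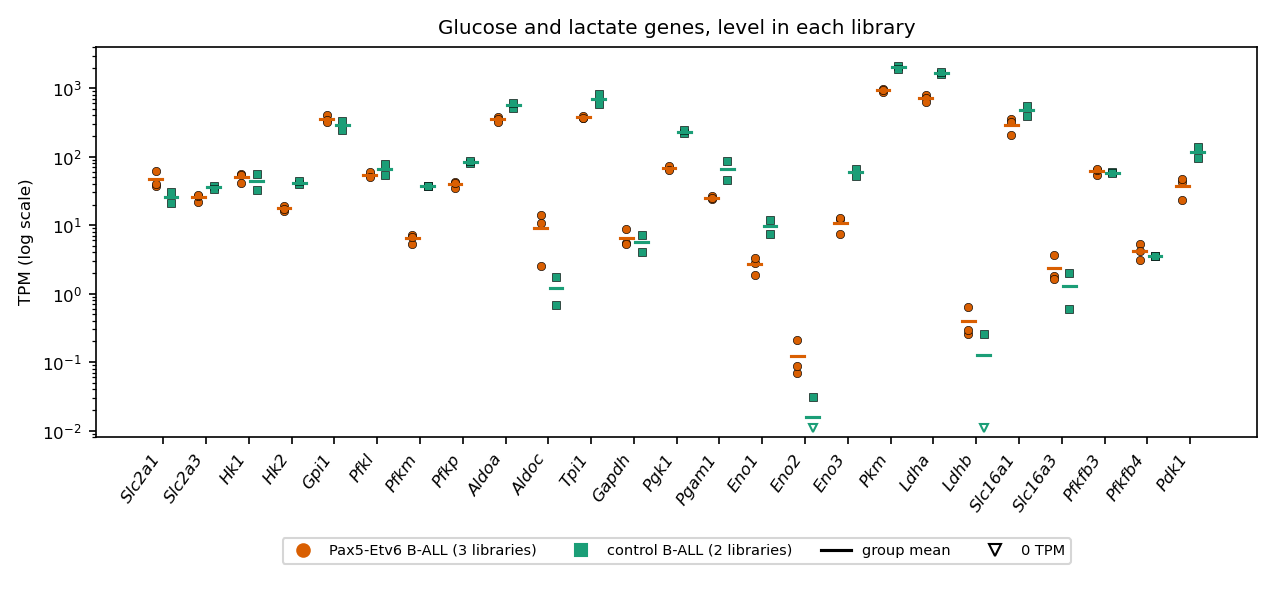
TPM (log scale) of each glucose and lactate gene in the 3 Pax5-Etv6 B-ALL (circles) and 2 control B-ALL libraries (squares), with group means as bars and triangles at the lower edge for 0 TPM. The 2 groups separate for Hk2, Pfkm, Pgk1, Eno3, Pkm and Ldha and overlap for Hk1, Gpi1, Pfkl and Pfkfb3.

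Lactate dehydrogenase turns pyruvate into lactate and regenerates the cofactor of glycolysis. Ldha stood at 784, 725 and 635 TPM in Pax5-Etv6 B-ALL and 1638 and 1750.3 TPM in control B-ALL, 2.37-fold lower in Pax5-Etv6 B-ALL (log2 fold change -1.25 ± 0.16, adjusted p = 0.00174). The groups were far apart, with all 3 values under 785 TPM against at least 1638 TPM. The heart-type subunit Ldhb did not reach 0.65 TPM in any library and was not tested. Slc16a1, the lactate transporter MCT1, had 204, 350.3 and 321 TPM in Pax5-Etv6 B-ALL and 559 and 394 TPM in control B-ALL, without overlap but without a call (log2 fold change -0.72 ± 0.28, adjusted p = 0.0679). Slc16a3, the hypoxia-inducible transporter MCT4, was near the limit of the filter, at 1.79, 3.67 and 1.66 against 0.597 and 2.03 TPM (log2 fold change 0.57 ± 0.42, adjusted p = 0.291).

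Among the regulators of flux, the kinase Pdk1, which inhibits pyruvate dehydrogenase, had 23.3, 42.7 and 46.8 TPM in Pax5-Etv6 B-ALL and 137 and 95.2 TPM in control B-ALL and fell (log2 fold change -1.64 ± 0.33, adjusted p = 0.00818). This call was lost without control replicate 1 (adjusted p = 0.0754; all alternatives gave 0.0044 to 0.0754). Pfkfb3 and Pfkfb4 make fructose 2,6-bisphosphate, the activator of phosphofructokinase. Pfkfb3 overlapped, at 53.9, 64.0 and 66.5 against 59.2 and 57.0 TPM (log2 fold change 0.07 ± 0.16, adjusted p = 0.719), and Pfkfb4 was low in all libraries, at 3.14 to 5.27 TPM (log2 fold change 0.18 ± 0.30, adjusted p = 0.634).

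Summed over the 16 entries from hexokinase to pyruvate kinase, the pathway stood at 2307, 2384 and 2235 TPM in Pax5-Etv6 B-ALL and 4136 and 4302 TPM in control B-ALL (2309 ± 74.3 against 4219 ± 118 TPM, SD), 1.83-fold higher in the controls. Without the 3 entries that carry an overlap tag the ratio was 1.81. Pkm was the largest term in every library, followed by Aldoa, Gpi1 and Tpi1 in an order that differed between libraries. The uncertain Gapdh and Eno1 add little to the sums as listed.

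Because TPM is per length, the isoenzymes of a step can be set side by side within a library. Hk1 made up 70.0, 71.5 and 75.1% in Pax5-Etv6 B-ALL and 58.0 and 42.7% in control B-ALL of the hexokinase TPM, and Hk2 most of the rest. Pfkl held 57.3, 54.0 and 51.6% in Pax5-Etv6 B-ALL and 31.8 and 38.7% in control B-ALL of the phosphofructokinase TPM, and Pfkm 5.66, 6.63 and 6.87% in Pax5-Etv6 B-ALL and 21.5 and 18.5% in control B-ALL. The shares of Hk1 and Pfkl were thus higher, and that of Pfkm lower, in all 3 Pax5-Etv6 libraries than in both controls. Slc2a1 held 56.4, 42.4 and 44.4% in Pax5-Etv6 B-ALL and 30.0 and 36.2% in control B-ALL of the TPM of 4 glucose transporters (with Slc2a3, Slc2a6 and Slc2a8), again without overlap, and Slc2a3 was the larger of the pair only in the controls. Of 37 such shares over 12 steps, 26 (70.3%) did not overlap between the groups. For levels, which are a different measure, this held for 72.2% of all tested genes, and no background was computed for shares. The shares of a step add up to the whole, so they are not independent. Separation of a share is therefore not read as a result. The exact two-sided permutation test used here, which doubles the smaller tail over the 10 assignments of 5 libraries, cannot go under 0.2. This value was reached for the shares named above (adjusted p = 0.285 in this test), so none can pass the threshold.

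**Figure D4:**
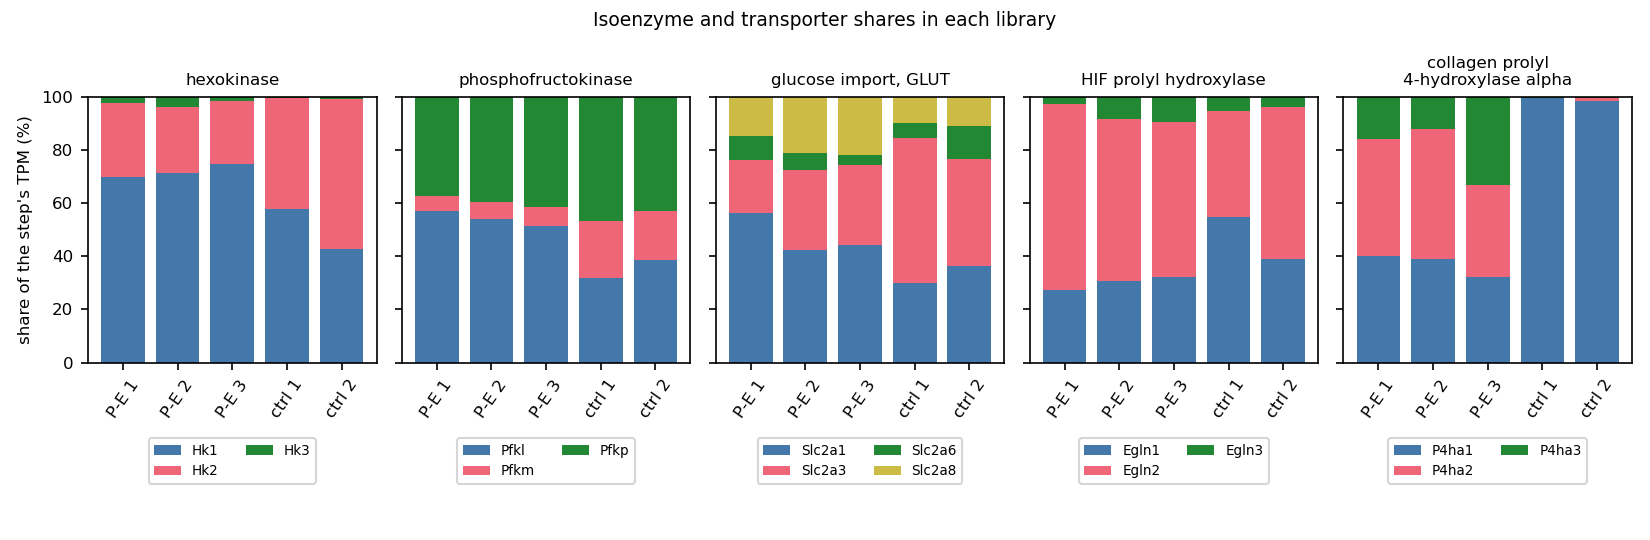
Share of each isoenzyme or transporter in the TPM of its step (percent, bars from 0 to 100) in the 3 Pax5-Etv6 (P-E) and 2 control (ctrl) B-ALL libraries. Hk2 and Pfkm take larger shares in the controls, and P4ha1 takes over 98% of the collagen prolyl hydroxylase TPM there.

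The oxygen-sensing genes centre on Hif1a, which encodes the regulated subunit of HIF-1. Hif1a stood at 24.1, 24.3 and 23.0 TPM in Pax5-Etv6 B-ALL and 80.5 and 53.6 TPM in control B-ALL, 2.82-fold lower with almost no spread among the Pax5-Etv6 libraries (log2 fold change -1.43 ± 0.22, adjusted p = 0.00311). RNA gives no measure of the protein, whose level is set by hydroxylation. Egln1, the main HIF prolyl hydroxylase, had 49.5, 58.6 and 58.2 TPM in Pax5-Etv6 B-ALL and 85.3 and 72.5 TPM in control B-ALL and fell narrowly (log2 fold change -0.50 ± 0.17, adjusted p = 0.0439). Its call was lost under 9 of 16 alternatives, among them median-of-ratios scaling (adjusted p = 0.0736), voom on recovered reads (0.0683) and leaving out Pax5-Etv6 replicate 1 (0.0981), 2 (0.103) or 3 (0.0915) or control replicate 1 (0.16), with 0.042 to 0.16 over all alternatives. Egln3, a hydroxylase that is itself hypoxia-inducible, split the Pax5-Etv6 group, at 4.62, 15.7 and 16.9 against 7.72 and 6.53 TPM. Replicate 1 was below both controls and replicates 2 and 3 above them (log2 fold change 0.55 ± 0.53, adjusted p = 0.41), and without replicate 1 the gene was called higher (adjusted p = 0.0132; all alternatives gave 0.0132 to 0.728).

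Of the 10 genes known as hypoxia targets, 4 fell, 2 rose, 3 were not called and 1 did not pass the filter. Of the 9 tested, 44.4% fell and 22.2% rose, against 29.7% and 21.9% of all tested genes, so the share that rose was near the background. The largest fall of the whole set was in P4ha1, a catalytic subunit of the collagen prolyl 4-hydroxylase, at 0.502, 2.01 and 0.792 TPM in Pax5-Etv6 B-ALL and 31.2 and 22.9 TPM in control B-ALL, with recovered reads (lower bounds) of 22, 74 and 42 reads against 2622 and 1133 (log2 fold change -3.79 ± 0.38, adjusted p = 0.000896). The group means differed 24.5-fold. Because the Pax5-Etv6 values are near the pseudocount, the fold change depended on it, at -4.68 with 0.1 TPM and -2.39 with 5 TPM. Its paralogue P4ha2 lay the other way, at 0.551, 2.54 and 0.846 TPM in Pax5-Etv6 B-ALL and 0.0410 and 0.279 TPM in control B-ALL, and did not pass the filter. The collagen prolyl hydroxylase genes summed to 1.25, 5.16 and 2.45 TPM in Pax5-Etv6 B-ALL and 31.2 and 23.2 TPM in control B-ALL, and P4ha1 made up 40.2, 39.1 and 32.4% in Pax5-Etv6 B-ALL and 99.8 and 98.5% in control B-ALL of them. The highest Pax5-Etv6 values of P4ha1 and P4ha2 were both in replicate 2, which also had the highest summed stromal and macrophage markers, whose part in these values was not tested.

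Ero1l, the oxidase that forms disulphide bonds in the endoplasmic reticulum (Ero1a in RefSeq), stood at 10.7, 12.1 and 10.2 TPM in Pax5-Etv6 B-ALL and 117 and 77.9 TPM in control B-ALL, an 8.84-fold difference (log2 fold change -3.01 ± 0.24, adjusted p = 0.000545). Neither group came near the other, with at most 12.1 TPM against at least 77.9 TPM. Bnip3, which marks mitochondria for removal, had 5.26, 9.78 and 7.69 TPM in Pax5-Etv6 B-ALL and 51.8 and 26.3 TPM in control B-ALL and fell (log2 fold change -2.18 ± 0.38, adjusted p = 0.00468). Its relative Bnip3l, also called Nix, fell less, at 38.0, 38.7 and 38.4 against 73.1 and 54.5 TPM (log2 fold change -0.70 ± 0.18, adjusted p = 0.0194). The Bnip3l call was lost without control replicate 1 (adjusted p = 0.0717) or Pax5-Etv6 replicate 2 (0.0641) or 3 (0.0574), with 0.0105 to 0.0717 over all alternatives.

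Vegfa and Ndrg1 were the 2 targets that rose. Vegfa, the growth factor of blood vessels, stood at 116, 136 and 148 TPM in Pax5-Etv6 B-ALL and 22.6 and 32.8 TPM in control B-ALL, 4.82-fold higher in Pax5-Etv6 B-ALL (log2 fold change 2.24 ± 0.21, adjusted p = 0.000745). Ndrg1, a stress-induced gene used as a hypoxia marker, was at 20.9, 20.4 and 31.0 TPM in Pax5-Etv6 B-ALL and 0.566 and 1.19 TPM in control B-ALL (log2 fold change 3.73 ± 0.31, adjusted p = 0.000605), with a fold change between 2.29 (pseudocount of 5 TPM) and 5.04 (voom). Both were highest in replicate 3. The summed markers of each other cell type listed above were also higher in all 3 Pax5-Etv6 libraries than in both controls. The part of such cells in the rise was not tested.

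The remaining targets did not separate. Higd1a, a mitochondrial protein, overlapped at 37.2, 32.6 and 45.1 against 42.8 and 38.0 TPM (log2 fold change -0.09 ± 0.20, adjusted p = 0.738). Ankrd37, which carries an overlap tag, had 7.56, 14.5 and 5.48 against 13.5 and 29.9 TPM (log2 fold change -1.16 ± 0.48, adjusted p = 0.085), and was called lower without Pax5-Etv6 replicate 2 (adjusted p = 0.038; all alternatives gave 0.038 to 0.402). Adm, the vasodilator peptide adrenomedullin, was low in every library, at 0.401 to 2.54 TPM (log2 fold change -0.24 ± 0.46, adjusted p = 0.688).

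**Figure D5:**
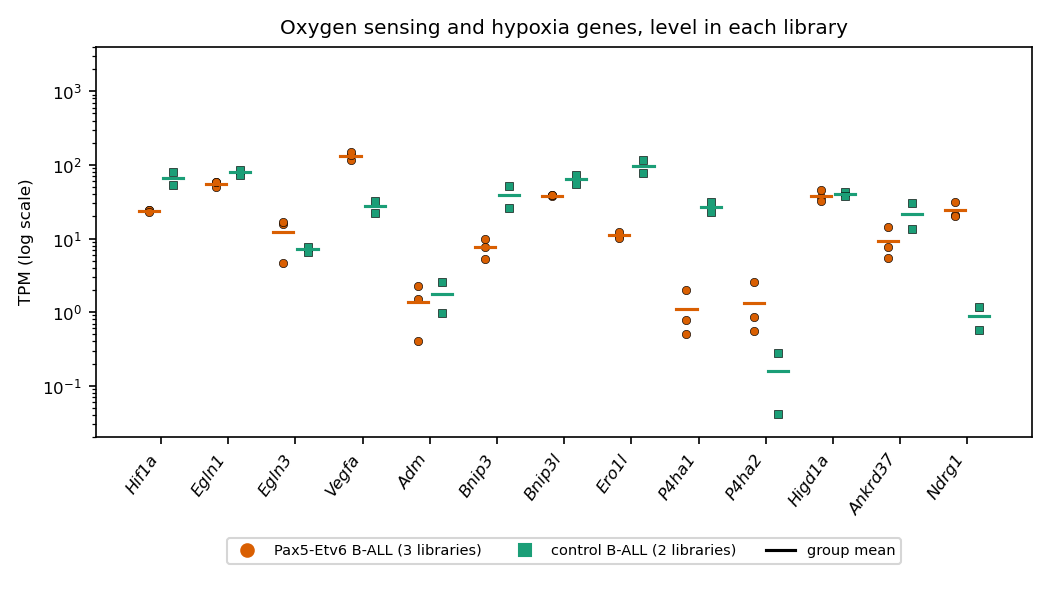
TPM (log scale) of each oxygen-sensing and hypoxia gene in the 3 Pax5-Etv6 B-ALL (circles) and 2 control B-ALL libraries (squares), with group means as bars. Hif1a, Bnip3, Ero1l and P4ha1 are lower and Vegfa and Ndrg1 higher in Pax5-Etv6 B-ALL, and Egln3 splits the group.

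Within Pax5-Etv6 B-ALL, replicate 2 was highest of the 3 in 21 of the 35 tested genes and replicate 1 lowest in 19. Between the controls neither dominated, with 15 genes higher in replicate 1 and 20 in replicate 2. The order of replicates was not computed over all tested genes, so these counts are not read as a trait of the 35 genes.

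Further genes of oxygen sensing and glucose metabolism, 131 entries in 7 lists, were read from the same fit. Of the 102 that were tested, 32 fell, 21 rose and 49 were not called, or 31.4% lower and 20.6% higher, near the 29.7% lower and 21.9% higher of all tested genes, against which the counts of each list are to be read. Without control replicate 1 the number that rose was 8. Among 14 tested HIF subunits and oxygen-sensing regulators 6 rose and 1 fell. Epas1, a further HIF subunit gene, was among the 6 that rose (log2 fold change 2.49 ± 0.64, adjusted p = 0.0189), unlike Hif1a. It had 1.60, 10.6 and 7.85 TPM in Pax5-Etv6 B-ALL and 0.0629 and 0.244 TPM in control B-ALL. The highest value was in replicate 2, as for summed macrophage and stromal markers, whose part was not tested. Cited2, an inhibitor of HIF that is itself hypoxia-inducible, had 296, 186 and 205 TPM in Pax5-Etv6 B-ALL and 33.0 and 39.6 TPM in control B-ALL (log2 fold change 2.60 ± 0.23, adjusted p = 0.000651), and Os9 stood at 167 ± 16.9 against 50.4 ± 5.65 TPM (mean ± SD; log2 fold change 1.71 ± 0.16, adjusted p = 0.000736). The elongins that serve the VHL ubiquitin ligase lay on opposite sides, with Tceb2 higher (log2 fold change 0.77 ± 0.23, adjusted p = 0.0286) and Tceb1 lower (log2 fold change -1.49 ± 0.28, adjusted p = 0.00629). The Tceb2 entry carries an overlap tag, and its call was lost without control replicate 1 (adjusted p = 0.119, fold change 0.44), without Pax5-Etv6 replicate 2 (0.0769) or 3 (0.0557) and with no filter (0.0669), with 0.00876 to 0.119 over all alternatives.

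Of 27 further hypoxia-induced genes, 11 fell and 6 rose. Stc2, a secreted stanniocalcin, fell, at 0.618, 0.184 and 0.0425 TPM in Pax5-Etv6 B-ALL and 37.7 and 22.4 TPM in control B-ALL (log2 fold change -4.58 ± 0.36, adjusted p = 0.000539). Its fold change depended on the pseudocount and the method, at -2.70 with 5 TPM and -7.13 with voom. Car12, a membrane carbonic anhydrase, had 2.96, 4.98 and 4.23 TPM in Pax5-Etv6 B-ALL and 68.4 and 39.0 TPM in control B-ALL (log2 fold change -3.40 ± 0.34, adjusted p = 0.000854), and the repressor Bhlhe41 had 1.36, 1.10 and 0.884 TPM in Pax5-Etv6 B-ALL and 23.5 and 20.4 TPM in control B-ALL (log2 fold change -3.44 ± 0.27, adjusted p = 0.000539), or -2.14 with a pseudocount of 5 TPM. The chemokine receptor Cxcr4 rose, at 528, 465 and 744 TPM in Pax5-Etv6 B-ALL and 122 and 143 TPM in control B-ALL (log2 fold change 2.09 ± 0.22, adjusted p = 0.00107), as did the glycogen synthase Gys1, at 29.5 ± 5.52 against 8.69 ± 2.49 TPM (log2 fold change 1.66 ± 0.27, adjusted p = 0.00404). Hmox1, haem oxygenase and abundant in macrophages, was highest in replicate 2 at 11.7, 72.6 and 14.8 against 1.83 and 5.03 TPM (log2 fold change 2.57 ± 0.79, adjusted p = 0.0337), where macrophage markers were highest too; their part was not tested. Its call was lost without control replicate 1 (adjusted p = 0.217) or 2 (0.0734), with a pseudocount of 5 TPM (0.06), with no filter (0.0823) and with voom (0.0596), with 0.0142 to 0.217 over all alternatives.

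Of 12 tested genes of pyruvate dehydrogenase and pyruvate entry, the mitochondrial side of pyruvate use, 7 (58.3%) fell and none rose, against 29.7% lower and 21.9% higher over all tested genes. Dld, the dihydrolipoamide dehydrogenase subunit, had 60.5, 60.5 and 60.0 TPM in Pax5-Etv6 B-ALL and 302 and 164 TPM in control B-ALL (log2 fold change -1.86 ± 0.26, adjusted p = 0.00225), and Dlat stood at 30.9 ± 1.06 against 93.7 ± 43.3 TPM (log2 fold change -1.49 ± 0.29, adjusted p = 0.00696). The phosphatase Pdp1 fell too (log2 fold change -1.55 ± 0.31, adjusted p = 0.00749), a call lost without control replicate 1 (adjusted p = 0.0638; all alternatives gave 0.00578 to 0.0638), with a fold change of -0.97 with a pseudocount of 5 TPM. Of 18 citric acid cycle genes 10 (55.6%) fell and 1 (5.56%) rose. Mdh2, malate dehydrogenase, had 672, 646 and 642 TPM in Pax5-Etv6 B-ALL and 1724 and 2157 TPM in control B-ALL (log2 fold change -1.56 ± 0.16, adjusted p = 0.000944), the ligase subunits Suclg2 and Sucla2 fell (log2 fold change -2.47 ± 0.24, adjusted p = 0.000803, and log2 fold change -1.76 ± 0.22, adjusted p = 0.00158), and Ogdh rose (log2 fold change 0.85 ± 0.13, adjusted p = 0.00304).

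In the pentose phosphate pathway, which branches off at glucose 6-phosphate, 3 of 8 tested genes (37.5%) rose and none fell, so fewer were called than the 51.7% of all tested genes, and 2 of the 3 calls were lost without control replicate 1. Taldo1, transaldolase, had 592, 624 and 591 TPM in Pax5-Etv6 B-ALL and 298 and 329.7 TPM in control B-ALL (log2 fold change 0.94 ± 0.13, adjusted p = 0.00239), and the lactonase Pgls 977 ± 69.5 against 549 ± 144 TPM (log2 fold change 0.85 ± 0.20, adjusted p = 0.0128). The Pgls call was lost without control replicate 1 (adjusted p = 0.0516; all alternatives gave 0.00687 to 0.0516). H6pd, the form in the endoplasmic reticulum, rose (log2 fold change 1.08 ± 0.28, adjusted p = 0.0199), a call lost without control replicate 1 (adjusted p = 0.119) or Pax5-Etv6 replicate 2 (0.0621) or 3 (0.0597), with 0.0054 to 0.119 over all alternatives. Among 15 tested further isoenzymes and transporters of glycolysis 2 rose, 2 fell and 11 were not called. The ADP-dependent glucokinase Adpgk fell (log2 fold change -1.40 ± 0.26, adjusted p = 0.00628), as did the phosphoglucomutase Pgm1 (log2 fold change -1.03 ± 0.18, adjusted p = 0.00487). Slc2a8, a further glucose transporter, rose (log2 fold change 1.10 ± 0.25, adjusted p = 0.0113), a call lost without control replicate 1 (adjusted p = 0.0533; all alternatives gave 0.00451 to 0.0533). Bpgm, best known from red cells, rose (log2 fold change 1.04 ± 0.33, adjusted p = 0.0367), at 50.2, 23.5 and 33.4 against 14.7 and 17.4 TPM. Its highest value was in replicate 1, where neutrophil and erythroid markers were highest (their part was not tested). The Bpgm call was lost without Pax5-Etv6 replicate 3 (adjusted p = 0.078) and with no filter (0.0722). It was also lost without control replicate 1 (fold change 0.93) or 2 (1.16).

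Of 8 tested MYC and MondoA regulators of glucose genes 3 rose and 1 fell. The gene that fell was Myc, which the controls received by retrovirus (log2 fold change -2.42 ± 0.20, adjusted p = 0.000608). Txnip, an inhibitor of glucose uptake whose entry carries an overlap tag, had 165, 168 and 193 TPM in Pax5-Etv6 B-ALL and 65.4 and 88.2 TPM in control B-ALL (log2 fold change 1.19 ± 0.18, adjusted p = 0.00283). Mlx, the partner of MondoA, rose (log2 fold change 0.59 ± 0.16, adjusted p = 0.0219), a call lost without control replicate 1 (adjusted p = 0.086) or Pax5-Etv6 replicate 2 (0.0728) or 3 (0.0835), with 0.0078 to 0.086 over all alternatives. Mycn varied widely within Pax5-Etv6 B-ALL, at 2.56, 8.06 and 19.9 against 0.0185 and 0.252 TPM (log2 fold change 2.96 ± 0.70, adjusted p = 0.0141), with a fold change of 1.39 with a pseudocount of 5 TPM and 6.78 with voom. Its call was lost without control replicate 1 (adjusted p = 0.106) or 2 (0.0656), with 0.00147 to 0.106 over all alternatives.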

How the data were processed

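The authors deposited 1 table of TPM per RNA library (5 libraries), and each sums to 1000000 over 24726 entries. The submitters' processing notes name the mm9 build, HTSeq 0.5.3 and DESeq2 1.4.1 without saying what each did. The aligner and the gene models were not given in the sources used here. Per the labels, a strand-specific protocol applied to the 3 Pax5-Etv6 libraries, the field being blank for the controls, and 4 of the 38 entries (Pfkp, Tpi1, Eno1 and Ankrd37) carry an overlap tag. Replicates were numbered in the order of deposition, and the numbers pair nothing. The 2 chromatin immunoprecipitation samples were not analysed here.

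From the TPM values, log2(TPM + 1) of the 11805 genes that reached 1 TPM in 2 or more libraries was fitted with limma 3.58.1 in R 4.3.3 (empirical Bayes with trend, two-sided, without covariates, on 3 residual degrees of freedom), and p was adjusted by the Benjamini-Hochberg method. Whole reads were recovered for all 16538 entries above 0 in at least 2 libraries (100%, tolerance 1e-06) as the smallest integers whose ratios match, so totals are lower bounds. Shares were compared with exact permutation tests (scipy 1.17.1). Named genes were all 38 entries and, of the other lists, up to 3 called genes per list and direction by size of change, if the higher group averaged 10 TPM or more. Epas1, below that level, was named in addition, as a HIF subunit gene that rose. The genes, lists and tests were chosen with earlier results of these data known. Alternatives were other pseudocounts, filters, scalings and limma settings, voom, leaving out tagged entries, and leaving out each library.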

Additional observations from a re-analysis of the deposited data

How the results depend on the processing

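The 18 falls and 3 rises ranged from 15 to 18 and from 2 to 4 over the 16 alternatives, and no called gene of the 35 changed direction under any of them; of the 14 not called, Hk1, Gapdh, Adm and Higd1a did under at least 1. Of the 21 calls, 16 held under every alternative that could be run; Aldoc, Egln1, Bnip3l, Pdk1 and Eno1 lost theirs under at least 1, as given beside their values. Median-of-ratios scaling, quantile normalization and voom moved the median of all genes by 0.11 on the log2 scale, and the median of the 35 genes was -0.59 under the first. Leaving out control B-ALL replicate 1 left 1410 of all genes higher and 1954 lower, and 8 of the other pathway genes higher; the cause was not tested. Over the fits that left out 1 library, calls over all genes ranged from 1410 to 2984 higher and from 1954 to 3350 lower, calls of the 35 genes from 2 to 4 higher and from 15 to 17 lower, and calls of the other pathway genes from 8 to 23 higher and from 24 to 32 lower. Without tagged entries the difference in the share of Pfkfb3 among its isoenzymes turned from 3.34 to -0.229 percentage points, since Pfkfb2 carries such a tag. No paired analysis was possible because the labels give the libraries no shared replicate numbers. TPM under 1, as for P4ha1 in Pax5-Etv6 replicates 1 and 3, rests on 22 and 42 recovered reads.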
